A study of Rattus norvegicus with 232 samples.

Results

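The expression of 10 genes of the stress axis was described in whole brain of inbred rats of the Hybrid Rat Diversity Panel. The genes were Crh, its receptors Crhr1 and Crhr2 and its binding protein Crhbp, the steroid receptors Nr3c1 and Nr3c2, the steroid enzyme Hsd11b1, and the glucocorticoid-induced genes Fkbp5, Sgk1 and Tsc22d3. They were chosen by name for their role, with earlier results of these data known, and were 10 of the 20859 RefSeq genes measured. All rats were untreated and were labelled male where the labels gave a sex. Total RNA of the whole brain, of which a side was used after a sagittal cut, was depleted of ribosomal RNA and sequenced as stranded libraries. The values came from 214 libraries of 197 animals, which belonged to 74 strains in 17 batches. A batch is the sequencing batch given in the labels as a sample property; the titles of 23 of the 214 libraries give another batch. Of the strains, 30 were HXB/BXH recombinant inbred strains (88 animals), whose progenitors were SHR/OlaIpcv and BN-Lx/Cub, while 19 were FXLE/LEXF recombinant inbred strains (43 animals), derived from F344/Stm and LE/Stm. The remaining 25 were classic inbred strains (66 animals), progenitors included. There were 3 animals in 54 strains, 2 animals in 15 strains and 1 animal in 5 strains. Animals of an inbred strain are nearly identical in genotype, so a difference between strains beyond the spread between animals of a strain was read as a strain effect, with the limit that the batches of strains also differed. The paper also reports that the HXB/BXH rats and their progenitors were kept in Prague and their brains shipped in liquid nitrogen. For the other classic strains it studied, it names commercial suppliers and storage in RNAlater. Source and handling thus differed along with strain and panel, and their part in the strain effects was not tested.

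Corticotropin-releasing hormone, the product of Crh, starts the stress response in the hypothalamus, drives the pituitary to release corticotropin and thereby the adrenal to release glucocorticoids, which in rats are mainly corticosterone. Corticosterone acts in brain through the mineralocorticoid receptor (Nr3c2), which binds it with high affinity, and the glucocorticoid receptor (Nr3c1), which binds it at stress levels. Both are transcription factors, and Fkbp5, Sgk1 and Tsc22d3 are among the genes known to be induced by the glucocorticoid receptor in many tissues. Lewis rats (LEW) are known for a weaker corticosterone response to stress than Fischer rats (F344), so the comparison of these families was made for the same genes.

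The promoters of the glucocorticoid-induced genes are shown because these genes were the ones compared for co-variation. Each is a stretch of 250 bases before a transcription start given by RefSeq for the rat build GRCr8, written 5′ to 3′ on the strand of the gene, with TATAAA in capitals where it occurs. RefSeq gives 3 starts each for Sgk1 and Tsc22d3, and a window that holds TATAAA is shown.
Sgk1 (chr1:24804832-24805081, minus strand): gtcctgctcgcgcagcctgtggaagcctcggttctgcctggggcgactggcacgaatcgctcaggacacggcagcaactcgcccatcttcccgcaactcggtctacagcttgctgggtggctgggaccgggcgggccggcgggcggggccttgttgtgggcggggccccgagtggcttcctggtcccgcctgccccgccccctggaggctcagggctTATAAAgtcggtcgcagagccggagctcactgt
Tsc22d3 (chrX:109010035-109010284, minus strand): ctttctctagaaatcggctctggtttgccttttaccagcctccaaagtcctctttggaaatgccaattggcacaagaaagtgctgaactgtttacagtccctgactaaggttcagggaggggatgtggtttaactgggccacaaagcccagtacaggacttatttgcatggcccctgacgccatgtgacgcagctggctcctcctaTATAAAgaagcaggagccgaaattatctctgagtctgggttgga
Fkbp5 (chr20:6543556-6543805, minus strand): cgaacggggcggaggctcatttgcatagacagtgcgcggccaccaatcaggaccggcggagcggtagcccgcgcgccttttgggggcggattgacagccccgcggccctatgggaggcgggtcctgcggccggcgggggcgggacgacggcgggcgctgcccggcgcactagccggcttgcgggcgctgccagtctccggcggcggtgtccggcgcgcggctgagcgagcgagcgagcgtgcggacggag
The TATAAA began 33 bases before the start of Sgk1 and 44 bases before that of Tsc22d3, and the Fkbp5 window held none. Windows were matched for 7 of the 10 genes, with 13 windows in all. TATAAA, searched on both strands, was in 3 of these 13 windows, all of Sgk1 or Tsc22d3, whose other 3 windows held none, and in 12.9% of the 33469 windows of all genes. The palindromic glucocorticoid response element, AGAACA and TGTTCT with any 3 bases between them, was in 0 of the 13 windows and in 0.012% of all windows, and the shorter AGAACA, which is part of it, in 0 of 13 and in 17.5% of all windows. The cyclic AMP response element TGACGTCA, which is its own reverse complement, was in 0 of 13 and in 1.59% of all windows. The GC content was 69.6% for the Sgk1 window, 49.2% for Tsc22d3 and 76.0% for Fkbp5, against a median of 51.2% for all windows.

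In the deposited annotation of an earlier version of these data, on the rn6 build, Crh spanned chromosome 2:104459999-104461863 on the minus strand and Crhbp 2:25141471-25153334 on the minus strand. The build behind the values described here was not given. Crhr1 spanned 10:92165425-92256662 on the plus strand. On the minus strand, Nr3c2 spanned 19:34408231-34815341, Hsd11b1 13:111860225-111996715, Fkbp5 20:7970056-8207272 and Sgk1 1:24185435-24302298. These are spans of whole genes, introns included.

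The values were read as being on a log2 scale, on which a difference of 1 is a 2-fold change, and the medians of the libraries lay between 8.18 and 8.42. However, 5 values of the gene-level file, up to 36.9, and 21 of the transcript-level file, up to 64.7, were over 30, too high for a plain log2 of counts. How they arose was not tested, and each fold given here rests on reading the scale as log2. No read counts were used, so depth is unknown and the precision of a value is given by the spread between animals. Markers of neurons, astrocytes and oligodendrocytes were all measured and high, with mean levels of the 6, 6 and 7 markers between 13.2 and 14.8 in every animal. Of 8 pituitary markers only 3 were in the table, with a mean level between 2.61 and 4.55. The Y-linked genes Eif2s3y, Kdm5d and Uty were each lowest in the same 4 animals, HXB17/Ipcv animal 2 and the 3 LEW/Crl animals, whose labels gave the sex as male. For Kdm5d these 4 lay between 9.32 and 9.64 and the next lowest animal was at 10.21, with a median of 10.62 over all animals. The comparisons with LEW are therefore also given for F344/NHsd against LEW/SsNHsd alone, which holds no LEW/Crl animal.

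The gene-level value of Hsd11b1, which encodes the enzyme that regenerates active glucocorticoid from its inactive form inside cells, did not follow its transcript. It averaged 13.28, whereas the only RefSeq transcript of the gene in the transcript table, NM_017080.2, averaged 9.20, and the correlation of the gene-level value with the transcript over 197 animals was -0.10. Over 15794 genes the median of this correlation was 0.949 and the median gap between the gene and its summed transcripts was 0.20, so that Hsd11b1 stood at percentile 0.43 for the correlation and at percentile 98.0 for the gap of 4.07. In the tables of Ensembl genes Hsd11b1 averaged 12.07 and 11.96, also above the transcript. Crhr2 had the next largest gap of the 10 genes, 2.43, with a correlation of 0.22, and its only listed transcript, XM_006236557.3, averaged 2.85. For the other 8 genes the correlation of the gene with its summed transcripts lay between 0.87 and 1.00. Values of Hsd11b1 and Crhr2 below are those of the gene table and may not be those of the listed transcript.

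**Figure D1:**
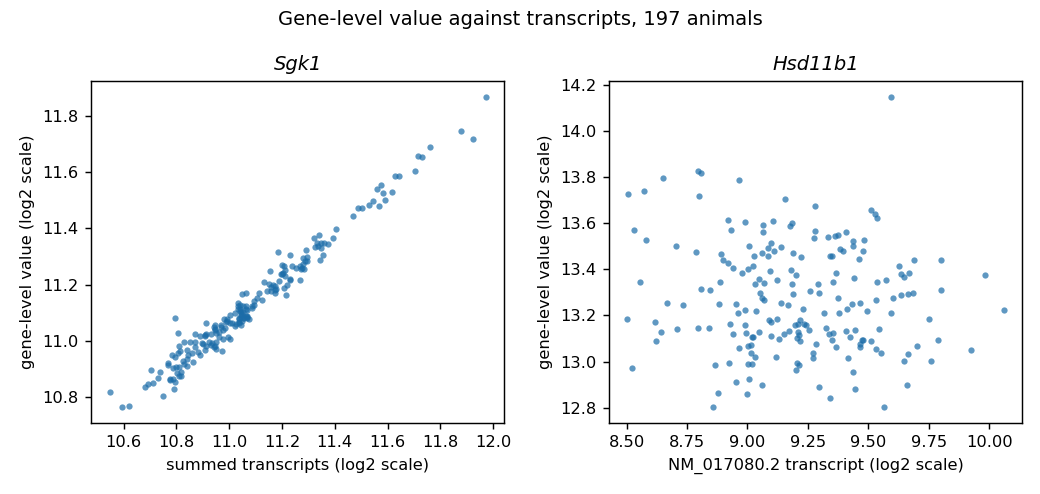
Gene-level value against the sum of the gene's transcripts for Sgk1 (left) and against the only transcript of Hsd11b1 (right), both on a log2 scale, with a point for each of 197 animals. The Sgk1 points lie along a line (r = 0.99), while the Hsd11b1 points form a cloud with no slope (r = -0.10).

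Sgk1, Crhbp, Tsc22d3 and Fkbp5 differed most between strains. The strain R2, the share of the variance among animals that lies between strain means, was 0.73 for Sgk1, 0.64 for Crhbp, 0.61 for Tsc22d3 and 0.52 for Fkbp5. The values of Crhr1 and Crh were 0.49 and 0.48, those of Nr3c2, Hsd11b1 and Crhr2 were 0.45, 0.44 and 0.44, and Nr3c1 was lowest at 0.41. With this number of strains and animals an R2 of 0.37 is reached with no strain effect, and the median of all genes was 0.45. In limma's moderated F-test with Benjamini-Hochberg adjustment over all genes, 6 of the 10 genes passed an adjusted p of 0.05, against 37.3% of all genes. When all animals numbered 1, 2 or 3 were left out, 3, 2 and 3 passed, against 15.9%, 14.4% and 29.1% of all genes. Sgk1 and Crhbp passed each time and Tsc22d3 did not pass without the animals numbered 2, while Crh, Crhr1 and Fkbp5 passed in none of the 3 fits. In earlier tables of the same project, built on Ensembl genes and on fewer animals, 6 of the 10 passed in the table called v6, against 32.3% of all genes, and 10 in v5, against 63.6%. On the animals of v5 the RefSeq table gave 3, against 22.8%. R2 was over 0.5 for 4 of the 10 genes and for 28.4% of all genes. The lowest and highest strain means lay 1.18-fold apart for Nr3c2 and 1.78-fold apart for Crh, with the other genes in between.

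**Figure D2:**
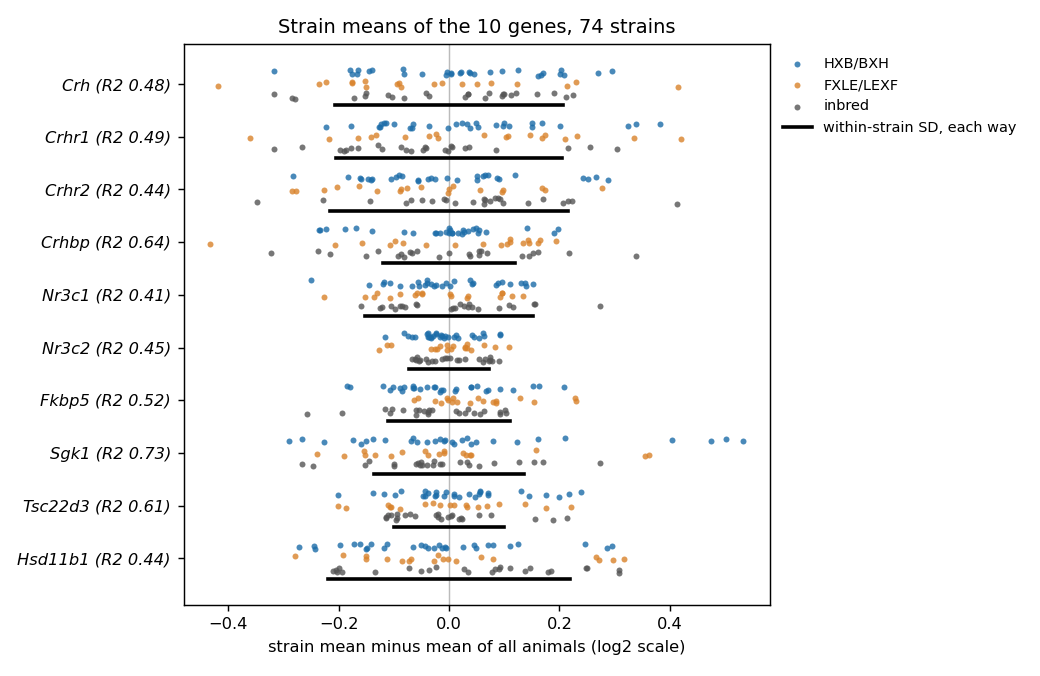
Strain means of the 10 genes, each as the difference from the mean of all animals on a log2 scale, with a point for each of 74 strains colored by panel and a black bar for the within-strain SD each way. The means of Sgk1 reach furthest beyond the bar, with HXB/BXH strains at the right end, while those of Nr3c2 span 0.23 in all.

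Among the genes of the hormone and its receptors, Crh was measured at a mean of 6.34 with a within-strain SD of 0.207. Its strain means ran from 5.92 in LEXF9/Stm to 6.76 in FXLE13/Stm, each of which was a strain with 1 animal. The strain effect passed (adjusted p = 0.038, limma). Crhr1, the receptor through which the hormone acts in the pituitary and in much of the brain, ran from 8.00 in FXLE13/Stm (1 animal) to 8.78 in LEXF1C/Stm, whose animals were at 8.67 and 8.90, with a within-strain SD of 0.205 (adjusted p = 0.0271, limma). Crhr2, the receptor preferred by the urocortins, ran from 4.93 in FHH/EurMcwi to 5.69 in LEW/Crl and did not pass (adjusted p = 0.132, limma). The 3 LEW/Crl animals were at 5.88, 5.67 and 5.53, and the 3 FHH/EurMcwi animals at 4.93, 5.23 and 4.63.

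Crhbp, which binds the hormone and keeps it from its receptors, had the clearest strain effect of these 4 genes (adjusted p = 7.8e-07, limma). Its strain means ran from 7.66 in LEXF9/Stm, a strain with 1 animal, to 8.43 in F344/NCrl, whose animals were at 8.55 and 8.32. The next strain below F344/NCrl was MWF/Hsd, whose animals were at 8.13, 8.29 and 8.51. The gap between these neighbors, 0.12, was the only 1 of the 73 gaps between neighboring strains that exceeded the within-strain SD of Crhbp (0.120). For each of the other 9 genes, none of the 73 gaps between neighbors in the order of strains exceeded the within-strain SD. This sets a gap of means against the spread of single animals; no test of neighbors was run, and the F344/NCrl and MWF/Hsd animals overlapped. Over 74 strain means Crhbp and Crh had a correlation of 0.41, and Crhbp and the mean of the 6 astrocyte markers of -0.54; these are descriptions, and the part of cell composition in the strain differences of Crhbp was not tested. In bulk RNA, fewer cells of a type and less RNA per cell cannot be told apart.

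Neither steroid receptor passed the test between strains. Nr3c1 ran from 11.96 in HXB1/Ipcv to 12.48 in BN-Lx/Cub, with a within-strain SD of 0.152, with an adjusted p of 0.314 (limma). The 3 BN-Lx/Cub animals were at 12.78, 12.24 and 12.41, so that the spread within this strain was larger than the distance of its mean from the mean of all animals, 12.21. Nr3c2 had the smallest within-strain SD of the 10 genes, 0.073, at percentile 1.77 of all genes, and its strain means lay between 10.95 in LEXF5/Stm and 11.18 in LEXF2B/Stm (adjusted p = 0.208, limma). The gene-level value of Hsd11b1 ran from 13.00 in LEXF5/Stm to 13.59 in LEXF6B/Stm, with the largest within-strain SD of the 10 genes, 0.220, and did not pass (adjusted p = 0.124, limma). The transcript NM_017080.2 did not pass either, with an R2 of 0.38 (adjusted p = 0.632, limma). With the batch as a covariate, Nr3c1 and Hsd11b1 passed, with adjusted p of 0.0396 and 0.0379 (limma), beside 57.5% of all genes in that fit.

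Genes with strain means most like these were named by the correlation over 74 strains. For Nr3c1 they were Wapl (0.90), Usp1 (0.90) and Api5 (0.90), and for Crh they were Cbln2 (0.51), Pdp1 (0.51) and Otulinl (0.51). For the gene-level value of Hsd11b1 they were LOC500712 (0.95), LOC498592 (0.92) and Crp (0.92), and without LE/Stm, whose animal stood apart with a mean of 16.88 for the 9 liver markers against a median of 8.88, the values were 0.95, 0.93 and 0.95. The points of these correlations share libraries and batches.

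Sgk1, which encodes a kinase that regulates ion channels and transporters, had the largest strain effect of the members Fkbp5, Sgk1 and Tsc22d3 (adjusted p = 2.3e-12, limma), and its R2 was higher than that of 96.7% of all genes. Its strain means ran from 10.85 in HXB7/Ipcv, whose animals were at 10.85, 10.85 and 10.84, to 11.67 in HXB4/Ipcv, whose animals were at 11.87, 11.58 and 11.55. The end strains were thus 1.77-fold apart, and both were HXB/BXH strains with 3 animals. Within the HXB/BXH panel R2 was 0.84, and a group of 4 strains stood above the rest. HXB3/Ipcv was at 11.53, 11.58 and 11.50, BXH12/Cub at 11.48, 11.66 and 11.69, and BXH13/Cub at 11.72, 11.54 and 11.65, beside HXB4/Ipcv. The lowest of these 12 animals was at 11.482 and the highest of the other 76 animals of the panel at 11.473, so the sets did not overlap, although they nearly touched and the strains were picked for being highest. The highest mean of the other strains was 11.34. The same 4 strains were also highest among the 30 HXB/BXH strains of each of the Ensembl gene tables.

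**Figure D3:**
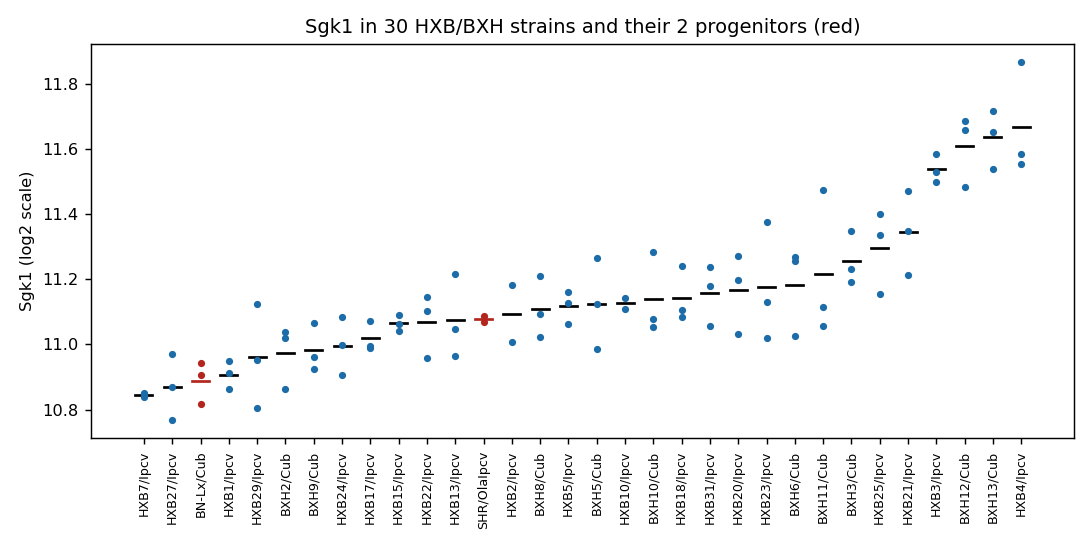
Sgk1 on a log2 scale in the 30 HXB/BXH strains (blue) and in their progenitors SHR/OlaIpcv and BN-Lx/Cub (red), ordered by strain mean, with a point for each animal and a line at the mean. The 4 strains at the right have means between 11.54 and 11.67, and the progenitors lie at 11.08 and 10.89.

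The progenitors did not span the range of their panel for Sgk1. SHR/OlaIpcv averaged 11.08 (11.07 and 11.09 in 2 animals) and BN-Lx/Cub 10.89 (10.82, 10.94 and 10.90). Of the 30 HXB/BXH strains, 19 had a mean above both progenitors, 9 lay between them and 2 below both. In the FXLE/LEXF panel 14 of 19 strains lay below both progenitors, F344/Stm at 11.22 and LE/Stm at 11.17, the latter with 1 animal, and the effect of strain on Sgk1 did not pass there (R2 = 0.60, adjusted p = 0.201, limma). Among the classic inbred strains it did not pass either (R2 = 0.52, adjusted p = 0.118, limma). Whether the strain effect differed between panels was not tested.

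Tsc22d3, which encodes the glucocorticoid-induced leucine zipper, had strain means between 11.32 in HXB17/Ipcv and 11.76 in BXH12/Cub with a within-strain SD of 0.099 (adjusted p = 1.4e-05, limma). The 3 BXH12/Cub animals were at 11.77, 11.76 and 11.76, and the 3 HXB17/Ipcv animals at 11.44, 11.28 and 11.23, which do not overlap, although the strains were picked as the highest and the lowest of the 74. HXB17/Ipcv animal 2, at 11.28, is also the animal with the lowest Y-linked values and the lowest mean of the 8 blood markers (8.58, against a median of 9.81), and without it HXB17/Ipcv, at 11.34, no longer had the lowest mean, which was then that of LEXF6B/Stm, 11.32. Fkbp5, a co-chaperone that lowers the affinity of the glucocorticoid receptor for its ligand, had strain means from 9.61 in BUF/MnaMcwi (1 animal) to 10.10 in LEXF5/Stm (10.05 and 10.15), with a within-strain SD of 0.111 (adjusted p = 0.0095, limma).

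The means of the strains at the ends of the order for Sgk1 were also apart in Tsc22d3, while they overlapped in Fkbp5; having been picked by Sgk1, they are described without a test. In the 4 highest strains Tsc22d3 averaged between 11.70 and 11.76, and in the 4 lowest of all 74 strains (HXB7/Ipcv, MWF/Hsd, HXB27/Ipcv and BN-Lx/Cub) between 11.38 and 11.52. The animals overlapped, since MWF/Hsd animal 1, at 11.68, lay above HXB3/Ipcv animal 3 (11.67), HXB4/Ipcv animal 2 (11.63) and BXH13/Cub animal 2 (11.56). Nfkbia, an inhibitor of NF-kappa B that glucocorticoids are known to induce, averaged between 9.44 and 9.60 in the highest strains and between 8.90 and 9.05 in the lowest. It was named after its values were seen, and of all genes its strain means were most like those of Sgk1. Its separation in strains picked by Sgk1 thus follows from that likeness. Of the further glucocorticoid-induced genes counted below, only Nfkbia was set out for these strains. Fkbp5 averaged between 9.77 and 10.02 in the former and between 9.68 and 9.91 in the latter, which overlap. Over 74 strain means the correlation of Sgk1 was 0.64 with Tsc22d3 and 0.78 with Nfkbia. The mean of the 7 oligodendrocyte markers was between 14.05 and 14.44 in the highest strains and between 14.41 and 14.61 in the lowest, and that of the 8 blood markers between 9.18 and 10.28 and between 9.76 and 10.51. The mean of the astrocyte markers was between 13.34 and 13.48 in the highest strains and between 13.45 and 13.55 in the lowest. That of the neuron markers was between 13.62 and 13.80 and between 13.63 and 13.70. The part of any of these in the difference was not tested. Over the 74 strains the correlation of the oligodendrocyte mean was -0.32 with Sgk1 and -0.43 with Fkbp5. With Sgk1 that of the astrocyte, neuron and blood means was -0.25, 0.19 and -0.07.

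Within panels, the HXB/BXH strains gave the most calls among the 10 genes. There, Sgk1, Tsc22d3, Fkbp5 and Crhbp passed (adjusted p of 9.5e-13, 0.0036, 0.0194 and 0.038, limma), 4 of 10 against 19.1% of all genes. In the FXLE/LEXF strains only Crhbp passed, with an R2 of 0.73 and an adjusted p of 0.0447 (limma), against 4.61% of all genes, and it did not pass with the batch as a covariate or with the animal number as a block. Among the classic inbred strains Crhbp again passed, with an R2 of 0.71 and an adjusted p of 0.00054 (limma), against 19.3% of all genes.

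Where the recombinant strains lay relative to their progenitors differed from gene to gene. For Crhr1, SHR/OlaIpcv averaged 8.32 and BN-Lx/Cub 8.05, and 19 of the 30 HXB/BXH strains lay above both, 11 between and 0 below. For Fkbp5 the progenitors were close, at 9.79 and 9.77, and 23 strains lay above both, 3 between and 4 below. Tsc22d3 was like it, with progenitors at 11.46 and 11.43 and 25 strains above both, while for Crh, with progenitors at 6.44 and 6.50, 21 strains lay below both. For Nr3c1, with progenitors at 12.15 and 12.48, and for Hsd11b1, at 13.07 and 13.58, 23 and 27 of the strains lay between and 0 above both. Crhbp was at 7.94 and 8.15 in the progenitors, with 21 strains between, 5 below and 4 above. In the FXLE/LEXF panel the progenitor means of Crhbp were 8.13 (F344/Stm) and 7.77 (LE/Stm), and 11 of the 19 strains lay above both, 7 between and 1 below. These counts rest on 2 or 3 animals per progenitor, and on 1 for LE/Stm, and were not tested. The FXLE/LEXF counts, that of Sgk1 above included, use progenitors with high liver markers. Their mean was 16.88 in the LE/Stm animal and up to 10.8 in F344/Stm, against a median of 8.88 over all animals.

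Between the progenitors of the HXB/BXH panel, none of the 10 genes passed, against 4.51% of all genes (940 genes). This count rested on few animals: it was 202 and 327 without each SHR/OlaIpcv animal, and 371, 1777 and 973 without BN-Lx/Cub animals 1, 2 and 3. The largest differences of SHR/OlaIpcv from BN-Lx/Cub were those of the gene-level Hsd11b1 and of Nr3c1. Hsd11b1 was at 13.06 and 13.07 in SHR/OlaIpcv and at 14.15, 13.11 and 13.49 in BN-Lx/Cub, a difference of -0.52 (SE 0.198, adjusted p = 0.115, limma). Nr3c1 was at 12.13 and 12.16 in SHR/OlaIpcv and at 12.78, 12.24 and 12.41 in BN-Lx/Cub, a difference of -0.33 (SE 0.139, adjusted p = 0.152, limma). In both genes all SHR/OlaIpcv animals lay below all BN-Lx/Cub animals and the first BN-Lx/Cub animal was highest. Of all animals, that animal also had the lowest mean of the immediate early genes (7.95, against a median of 8.92). Its mean of the sex-linked genes was the highest (9.33, against a median of 8.61). The animals of these strains did not overlap for 38.9% of all genes and for 5 of the 10. Without the second BN-Lx/Cub animal both passed, Hsd11b1 at -0.76 and Nr3c1 at -0.45, with adjusted p of 0.016 and 0.0422 (limma), beside 8.52% of all genes. Without any other animal neither passed, and without the first BN-Lx/Cub animal neither reached an unadjusted p of 0.05. The SHR/OlaIpcv values were means of 12 and of 6 libraries, while those of BN-Lx/Cub came from 1 or 2 libraries.

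The other genes of the pathway were counted by list, beside the 37.3% of all genes with a strain effect. The lists, like the 10 genes, were chosen with earlier results of these data known. Of 26 further genes known to be induced by glucocorticoids, 21 had a strain effect, with a median R2 of 0.58 against 0.45 for all genes. The highest were Cdkn1a, a cell cycle inhibitor, at 0.74, the metallothionein gene Mt2A at 0.71 and the lipocalin gene Lcn2 at 0.71. Among 10 genes of steroid synthesis and handling 6 had a strain effect, led by Cyp11b2 (0.82) and Cyp11b1 (0.79), paralogs of the last steps of adrenal steroid synthesis whose reads may be shared, and by Srd5a1 (0.62), the steroid 5-alpha reductase. Of 12 chaperones and co-regulators of the receptors 3 had one, the heat shock genes Dnajb1 (0.55) and Hspa8 (0.55) and the co-chaperone Stip1 (0.52). Of 7 measured genes of the hormone family and the axis only Adcyap1, the gene of the neuropeptide PACAP, had one (0.57), while Avp and Pomc did not pass. Of 9 immediate early genes, which answer to neuronal activity, 7 had a strain effect, the highest being Fosb (0.72), Egr2 (0.67) and Arc (0.63). High shares were not particular to the pathway. A strain effect was found for 8 of 8 blood (median R2 0.67), 8 of 9 liver (0.62) and 6 of 7 oligodendrocyte markers (0.55). Other lists of cells or regions ranged from 7 of 8 endothelial and meningeal to 1 of 9 hypothalamic markers.

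Whether the glucocorticoid-induced genes move together among animals of the same genotype was asked on the deviation of each animal from its strain mean, over 192 animals of the 69 strains with at least 2 animals. The test over the group did not pass. The mean of the 3 pairwise correlations of Fkbp5, Sgk1 and Tsc22d3 was 0.06 (permutation within strains, two-sided, p = 0.243, 100000 permutations), and the pairs went different ways. Sgk1 and Tsc22d3 rose and fell together, with r = 0.43 and rho = 0.42 (permutation p = 1e-05, the smallest these permutations can give, and adjusted p = 9e-05 over 45 pairs for both). Fkbp5 and Tsc22d3 went opposite ways, with r = -0.30 and rho = -0.28 (permutation p = 0.00046 and 0.00121, adjusted p = 0.00207 and 0.00495). Fkbp5 and Sgk1 showed no relation past the threshold, with r = 0.06 and rho = 0.02 (permutation p = 0.537 and 0.792, adjusted p = 0.619 and 0.828).

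The relation of Sgk1 and Tsc22d3 kept its sign in each way of looking at it. It was 0.43 without the 2 animals farthest from the median of Sgk1, 0.40 with the batch removed and 0.30 among the 93 animals that shared both strain and batch with another animal. By panel it was 0.52 in HXB/BXH, 0.18 in FXLE/LEXF and 0.50 in the classic inbred strains. The relation of Fkbp5 and Tsc22d3 was -0.27 without 2 animals, -0.24 with the batch removed and -0.37 within strain and batch, and lay between -0.32 and -0.28 in the 3 panels. In the v5 table r was nearer to 0 for both pairs, 0.27 for Sgk1 and Tsc22d3 and -0.16 for Fkbp5 and Tsc22d3. With all animals of a number left out it lay between 0.26 and 0.53 for the former, lowest without the animals numbered 1, and between -0.45 and -0.19 for the latter, nearest to 0 without those numbered 2. For Fkbp5 and Sgk1 the panels differed in sign, at -0.26 in HXB/BXH, 0.26 in FXLE/LEXF and 0.25 in the classic inbred strains, and this difference was not tested.

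**Figure D4:**
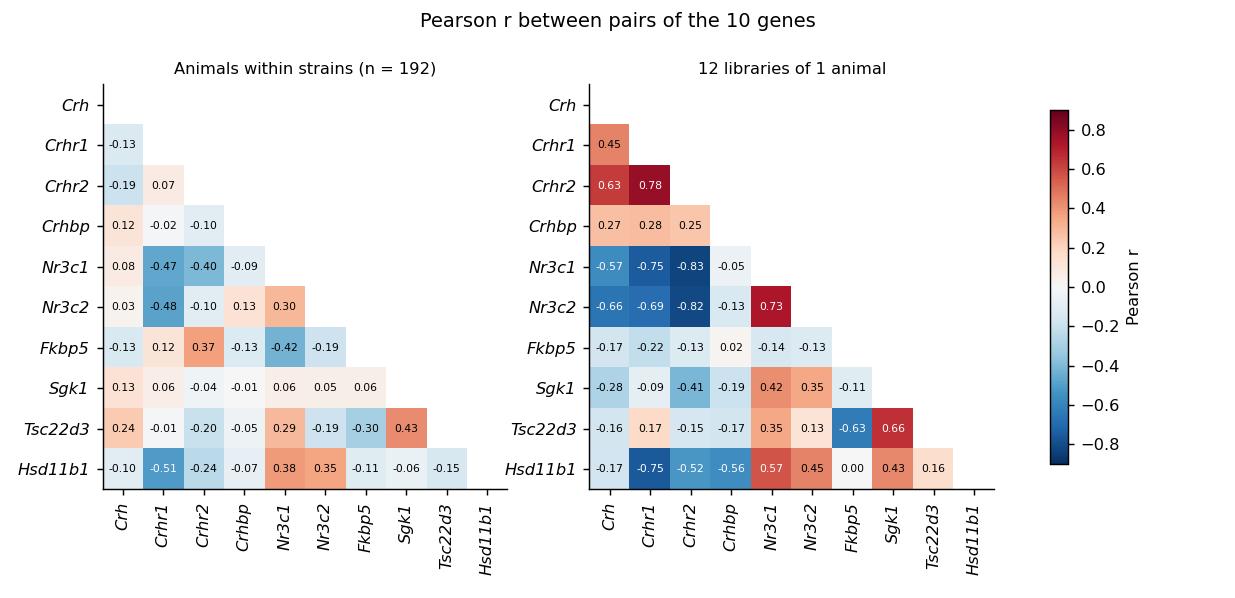
Pearson r of each pair of the 10 genes, as numbers and colors from -0.9 to 0.9. On the left, r is over deviations of 192 animals from their strain means, and on the right over 12 libraries of 1 SHR/OlaIpcv animal; Sgk1 with Tsc22d3 is positive (0.43 and 0.66) and Crhr1 with Nr3c1 negative (-0.47 and -0.75) in both.

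Among all 45 pairs of the 10 genes, 15 passed an adjusted p of 0.05 by the permutation test, 7 positive and 8 negative, and 11 passed by rho. The strongest joined the receptors and the gene-level Hsd11b1. Crhr1 went against Hsd11b1 (r = -0.51, rho = -0.50), Nr3c2 (r = -0.48, rho = -0.52) and Nr3c1 (r = -0.47, rho = -0.45), each with a permutation p of 1e-05 and an adjusted p of 9e-05. Nr3c1 went against Fkbp5 (r = -0.42, rho = -0.40, permutation p = 1e-05, adjusted p = 9e-05) and Crhr2 (r = -0.40, rho = -0.42, adjusted permutation p = 0.00026 and 0.00015), and with Nr3c2 (r = 0.30, rho = 0.32, adjusted permutation p = 0.00573 and 0.00247). The 10 pairs with r beyond 0.3 either way were all still beyond it without the 2 animals farthest from the median. All 15 pairs had the same sign with the batch removed and among animals that shared strain and batch. Crh was in 1 of the 15 pairs, with Tsc22d3 (r = 0.24, adjusted permutation p = 0.0456), which did not pass by rho (0.22, adjusted p = 0.0512), and Crhbp in none.

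Several of these pairs followed an axis that many genes shared. The first principal component of the within-strain deviations of all genes held 23.1% of their variance, and its correlation was -0.87 with Nr3c1, 0.65 with Crhr1, -0.56 with Hsd11b1, 0.45 with Crhr2, -0.42 with Nr3c2 and 0.40 with Fkbp5. It was -0.24 with Tsc22d3, -0.12 with Sgk1, -0.13 with Crh and 0.01 with Crhbp. The direction of a component is arbitrary and was set so that its correlation with Crhr1 is positive. After this component was removed, r of Crhr1 and Nr3c1 turned from -0.47 to 0.26, 11 of the 15 pairs kept their sign, and of the 10 pairs with r beyond 0.3 only Sgk1 with Tsc22d3 and Crhr1 with Nr3c2 (-0.31), 2 in all, stayed beyond it. The values were then 0.41 for Sgk1 with Tsc22d3 and -0.23 for Fkbp5 with Tsc22d3. What the component stands for was not tested.

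Many of these pairs also moved together between libraries of the same animal. SHR/OlaIpcv animal 1 was sequenced as 12 libraries in 12 batches, and across these the correlation was 0.66 for Sgk1 and Tsc22d3, -0.63 for Fkbp5 and Tsc22d3, -0.11 for Fkbp5 and Sgk1, -0.75 for Crhr1 and Nr3c1 and -0.75 for Crhr1 and Hsd11b1. Of the 15 pairs that passed among animals, 13 had the same sign across the libraries, of which Nr3c1 and Fkbp5 (-0.14) and Nr3c2 and Fkbp5 (-0.13) were the weakest, while Crh and Tsc22d3 (-0.16) and Crhr2 and Fkbp5 (-0.13) had the opposite sign. The SD of the 12 libraries was between 0.77 times (Hsd11b1) and 1.22 times (Crhr1) the within-strain SD of animals. For Sgk1 the 12 libraries lay between 10.93 and 11.28, with an SD of 0.123 against 0.136 among animals of a strain. Across the 6 libraries of SHR/OlaIpcv animal 4 the SD was between 0.27 times (Crhbp) and 1.00 times (Crhr2) the within-strain SD, with 0.41 for Nr3c2, 0.54 for Sgk1 and 0.64 for Crh. Where an animal has 1 library, library and animal cannot be told apart in its deviation, and the part of the library in the relations above was not tested.

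Genes that moved most like the mean of Fkbp5, Sgk1 and Tsc22d3 among animals of a strain were sought among the more abundant genes, those over the median level. Nfkbia was closest (r = 0.64), followed by the phosphatase genes Dusp4 (0.51) and Dusp6 (0.47), Sesn1 (0.49), B3gnt2 (0.47), Errfi1 (0.46), Ccn2 (0.46), Bcl6 (0.45), Ndufab1 (0.45) and Eif1b (0.45). Nfkbia followed Sgk1 (0.63) more than Tsc22d3 (0.29) or Fkbp5 (0.23). The most negative value was that of the ribosomal protein gene Rpl11 (-0.47). Of the 26 further glucocorticoid-induced genes 20 were positive, with a median r of 0.15, and 11 were above 0.2, against 47.1% positive, a median of -0.008 and 4.49% above 0.2 for all genes. All 9 immediate early genes were positive, with a median of 0.20. These are descriptions over 192 animals that share libraries and batches. The mean was of unscaled deviations of genes that did not move together as a group (mean r 0.06), so a gene can follow it through only some of them.

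The mean level of the 26 glucocorticoid-induced genes was also set against each member, in a family of 140 correlations of 10 genes with 14 lists, of which 24 passed an adjusted p of 0.05. This level rose with Crhr1 (r = 0.55, rho = 0.54), Fkbp5 (r = 0.40, rho = 0.36), Crhr2 (r = 0.35, rho = 0.31) and Sgk1 (r = 0.35, rho = 0.26), with adjusted permutation p of 0.00047, 0.00112, 0.00378 and 0.00378. It fell with Nr3c1 (r = -0.48, rho = -0.42) and the gene-level Hsd11b1 (r = -0.37, rho = -0.33), with adjusted permutation p of 0.00047 and 0.00175. With Tsc22d3 it showed no relation past the threshold (r = -0.01, rho = 0.0075, adjusted permutation p = 0.952 and 0.959). Without the 2 animals farthest from the median the values of r were 0.58 for Crhr1, 0.36 for Fkbp5, 0.30 for Crhr2, 0.35 for Sgk1, -0.44 for Nr3c1 and -0.30 for Hsd11b1, and with the batch removed they kept these signs, with 0.53 for Crhr1 and -0.52 for Nr3c1. The mean of the 9 immediate early genes went the same ways, with Crhr1 (r = 0.35, rho = 0.34), Fkbp5 (r = 0.37, rho = 0.36), Crhr2 (r = 0.28, rho = 0.27) and Nr3c1 (r = -0.43, rho = -0.45), with adjusted permutation p of 0.00175, 0.00163, 0.0202 and 0.00047. Without the 2 animals farthest from the median these were 0.36, 0.35, 0.24 and -0.41, and with the batch removed 0.32, 0.35, 0.31 and -0.48. The signs with Crhr1, Fkbp5, Crhr2 and Nr3c1 were those of these genes with the first component of all genes (0.65, 0.40, 0.45 and -0.87). The same held for Hsd11b1 (-0.56) with the glucocorticoid-induced list, but not for Sgk1 (-0.12). Because the direction of the component was set by Crhr1, these signs have meaning only relative to that of Crhr1. The component was not removed for the lists, and its part in these relations was not tested. Crhbp fell with the mean of the astrocyte markers (r = -0.37, rho = -0.36, adjusted permutation p = 0.0007), the same sign as over strain means (-0.36 without 2 animals, -0.39 with the batch removed). Fkbp5 and Tsc22d3 went opposite ways with the oligodendrocyte markers, at r = -0.29 and 0.29 (adjusted permutation p = 0.00582 for both, and -0.22 and 0.22 with the batch removed), and the part of this in the relation between Fkbp5 and Tsc22d3 was not tested. Hsd11b1 also fell with the oligodendrocyte markers (r = -0.30, rho = -0.28, adjusted permutation p = 0.012). The neuron markers rose with Fkbp5 (r = 0.32, rho = 0.25) and Sgk1 (r = 0.26, rho = 0.23), with an adjusted permutation p of 0.012 for both. The mean of the 8 endothelial and meningeal markers rose with Crhr1 (r = 0.28, rho = 0.28) and fell with Nr3c1 (r = -0.29, rho = -0.28) and Hsd11b1 (r = -0.30, rho = -0.28), with adjusted permutation p of 0.012, 0.012 and 0.0136. The hypothalamic markers fell with Sgk1 (r = -0.22, rho = -0.24) and Hsd11b1 (r = -0.32, rho = -0.24), with adjusted permutation p of 0.0136 and 0.012. The genes of the hormone family and the axis rose with Crhr2 (r = 0.32, rho = 0.25) and fell with Nr3c1 (r = -0.30, rho = -0.24) and Hsd11b1 (r = -0.33, rho = -0.25), with adjusted permutation p of 0.0136, 0.012 and 0.00535. Each of these 11 values kept its sign without the 2 animals farthest from the median and with the batch removed, and the part of these cells in the relations between members was not tested. The hypothalamic list and the list of the hormone family and the axis share Avp and Oxt, so their values are not independent.

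For F344 against LEW, the mean of F344/NCrl (2 animals) and F344/NHsd (3 animals) was compared with the mean of LEW/Crl (3 animals) and LEW/SsNHsd (3 animals). None of the 10 genes differed past the threshold, against 2.75% of all genes (573 genes, 237 higher and 336 lower in F344, by limma at an adjusted p of 0.05). No member reached an unadjusted p of 0.05 either, which 2292 of all genes did. The 10 differences lay between -0.15 and 0.12 on the log2 scale, and for none of the 10 genes were the 5 F344 and 6 LEW animals without overlap, against 3.69% of all genes.

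**Figure D5:**
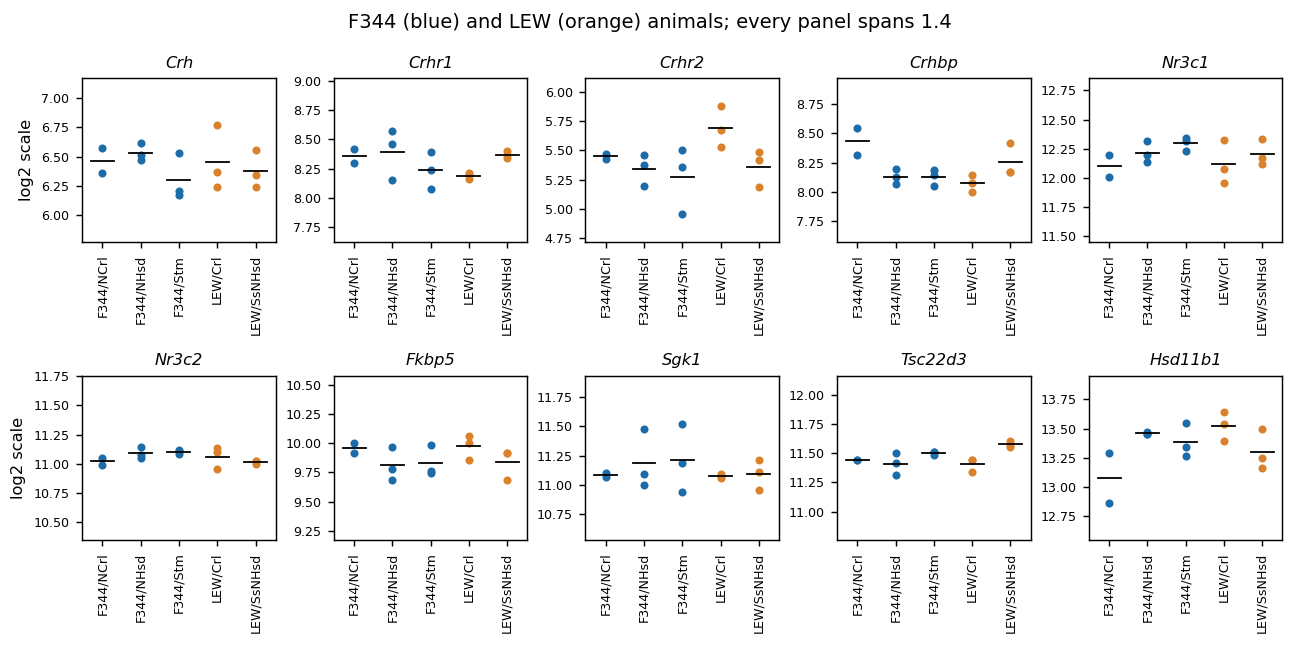
The 10 genes in F344 (blue) and LEW (orange) animals by substrain, on a log2 scale with the same span of 1.4 in each panel; points are animals and lines are means. F344 and LEW points overlap in every panel, and Crhbp in F344/NCrl, at 8.55 and 8.32, lies above LEW/Crl.

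Crh was at 6.57 and 6.36 in F344/NCrl, at 6.47, 6.62 and 6.51 in F344/NHsd, at 6.36, 6.24 and 6.77 in LEW/Crl and at 6.24, 6.34 and 6.55 in LEW/SsNHsd. The groups overlapped, and the difference was 0.08 with a 95% interval from -0.17 to 0.33 (adjusted p = 0.962, limma). The differences of its receptors were 0.10 for Crhr1 (-0.15 to 0.34) and -0.13 for Crhr2 (-0.39 to 0.13). Nr3c1 was at 12.005 and 12.20 in F344/NCrl, 12.14, 12.19 and 12.32 in F344/NHsd, 11.96, 12.08 and 12.33 in LEW/Crl and 12.17, 12.12 and 12.33 in LEW/SsNHsd. Its difference was -0.0065 with an interval from -0.19 to 0.18, and that of Nr3c2 was 0.02 with an interval from -0.08 to 0.11.

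The glucocorticoid-induced genes were likewise close in both families. Fkbp5 was at 9.92 and 10.00 in F344/NCrl, 9.97, 9.69 and 9.78 in F344/NHsd, 10.00, 10.06 and 9.85 in LEW/Crl and 9.91, 9.92 and 9.68 in LEW/SsNHsd, a difference of -0.02 (-0.16 to 0.12). The Sgk1 difference was 0.05 (-0.11 to 0.22), with the highest of these animals at 11.48 in F344/NHsd. For Tsc22d3 the difference was -0.07 (-0.19 to 0.06). The intervals leave room for differences of the size of the within-strain SD, which was 0.111, 0.136 and 0.099 for these genes. The F344/Stm animals, from another batch, were at 9.77, 9.75 and 9.98 for Fkbp5.

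Hsd11b1 had the lowest difference at the gene level, -0.15 (SE 0.133, -0.41 to 0.12, adjusted p = 0.859, limma), and its transcript NM_017080.2 had a difference of -0.02 (SE 0.190). Crhbp had the highest, 0.12 (SE 0.0738, -0.03 to 0.26, adjusted p = 0.655, limma). For these genes the substrain pairs went opposite ways. Crhbp was at 8.55 and 8.32 in F344/NCrl and at 8.08, 7.99 and 8.14 in LEW/Crl, a difference of 0.36 (SE 0.110, unadjusted p = 0.00145, adjusted p = 0.109, limma). These animals did not overlap, as for 4 of the 10 genes and 21.6% of all genes in this pair. In the other pair it was at 8.07, 8.19 and 8.13 in F344/NHsd and at 8.17, 8.17 and 8.42 in LEW/SsNHsd, a difference of -0.12 (SE 0.0984, adjusted p = 0.99999, limma). The gene-level Hsd11b1 differed by -0.45 in the first pair (SE 0.198, adjusted p = 0.496, limma), with F344/NCrl at 12.86 and 13.29 and LEW/Crl at 13.64, 13.40 and 13.54, and by 0.16 in the second (SE 0.177, adjusted p = 0.99999, limma).

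In the first pair 0 of 10 genes passed an adjusted p of 0.05, against 1.03% of all genes (215 genes), with Crhbp and Hsd11b1 under an unadjusted p of 0.05, as were 8.16% of all genes. Without F344/NCrl animal 1 neither was, and 59 of all genes passed. Without F344/NCrl animal 3 the number was 107, and without LEW/Crl animal 1 only 1 of the pair stayed under an unadjusted p of 0.05. In the second pair 0 passed, against 0.959% of all genes (200 genes), with Tsc22d3 under an unadjusted p of 0.05, as were 6.06% of all genes. Tsc22d3 was at 11.50, 11.42 and 11.31 in F344/NHsd and at 11.60, 11.55 and 11.57 in LEW/SsNHsd, a difference of -0.17 (SE 0.0824, unadjusted p = 0.047, adjusted p = 0.805, limma). These animals did not overlap, as for 2 of the 10 genes and 14.7% of all genes in this pair. With 1 of the 6 animals left out, Tsc22d3 stayed under an unadjusted p of 0.05 only without F344/NHsd animal 1, and the number of all genes that passed fell to between 124 and 155, with 124 and 132 without F344/NHsd animals 1 and 3. In the first pair the difference of Tsc22d3 was 0.03. The test of the difference between the pairs passed for 0 of the 10 genes, against 0.0144% of all genes. The second pair holds no LEW/Crl animal, so that the low Y-linked values of that substrain do not enter it, and all its animals were labelled with batch 11. F344/NCrl and LEW/Crl were both labelled with batches 8 and 10. The titles instead give batch 9 for animal 1 of each of the 4 substrains and batch 8 for the others, and 0 of the 10 genes passed with that batch as a covariate either.

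Of the other genes of the pathway, 2 of the 26 glucocorticoid-induced genes passed, both lower in F344, and none was higher, beside 2.75% of all genes in either direction. Lcn2, an acute phase lipocalin, averaged 3.81 in F344 and 4.51 in LEW, a difference of -0.70 (SE 0.130, adjusted p = 5.1e-05, limma). Glul, which encodes the glutamine synthetase of astrocytes, averaged 15.59 and 15.78, a difference of -0.19 (SE 0.0478, adjusted p = 0.00765, limma). Without LEW/Crl, in the second pair, neither passed, with differences of -0.44 for Lcn2 (adjusted p = 0.421, limma) and -0.21 for Glul (adjusted p = 0.0892, limma). The median difference of the 26 genes was -0.05, against 0.00 for all genes. No gene passed among the 9 immediate early genes, the 10 genes of steroid handling, the 12 chaperones and co-regulators or the 7 genes of the hormone family and the axis. Among the marker lists, 1 of 8 blood genes (Hba-a3) was lower in F344. Of the 9 genes of the liver list 1 (Tf) was higher. It averaged 15.27 in F344 and 14.88 in LEW, against 11.09 and 11.14 for Alb of that list. Whether Tf came from liver was not tested. The liver list shares Ttr with the choroid plexus list. None of the 6 astrocyte, 6 neuron, 7 oligodendrocyte, 8 choroid plexus or 8 endothelial and meningeal markers passed. Most of the other blood and liver genes went the opposite way to the named gene of their list, without passing. The median difference was 0.23 for the 8 blood genes and -0.18 for the 9 liver genes. In the second pair, where 0.959% of all genes passed, Hba-a3 again passed (-1.49, adjusted p = 0.000135, limma) and Tf did not (0.28, adjusted p = 0.771, limma). All 8 choroid plexus markers averaged lower in F344, with a median difference of -0.30, and their mean level was between 8.76 and 9.04 in F344/NCrl and F344/NHsd and between 8.94 and 9.54 in LEW. The meningeal genes Col1a1 (-0.24), Col1a2 (-0.31), Dcn (-0.32) and Lum (-0.17) were also lower on average in F344, as in the second pair, while of the endothelial genes Cldn5 differed by -0.0067, Slco1c1 by 0.08, Pecam1 by 0.11 and Flt1 by 0.16, so that the median difference of the 8 genes was -0.09. The part of these cells in the values of the 10 genes was not tested. Of 4 measured sex-linked genes 3 were higher in F344, with LEW/Crl the low substrain. In the second pair Eif2s3y, Kdm5d and Uty differed by -0.0028, 0.02 and 0.02.

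At the level of transcripts, 22 transcripts belonged to the 10 genes, and 3 had a strain effect, against 13.9% of all 45918 transcripts. These were Crhbp NM_139183.2 (R2 = 0.63), Sgk1 NM_019232.3 (R2 = 0.69) and Tsc22d3 NM_031345.2 (R2 = 0.62). None of the 22 differed between F344 and LEW, against 1.0% of all transcripts. The largest relative to its error was the minor Sgk1 transcript NM_001193568.1, which averaged 6.18 and 5.87 in F344/NCrl and F344/NHsd and 4.74 and 4.56 in LEW/Crl and LEW/SsNHsd, a difference of 1.38 (SE 0.484, unadjusted p = 0.00525, adjusted p = 0.228, limma). In the second pair alone it differed by 1.32 (SE 0.645, adjusted p = 0.99979, limma), and none of the 22 passed, against 0.266% of all transcripts. The main Sgk1 transcript NM_019232.3, at a mean of 10.45, differed by -0.09 (SE 0.167). A non-coding Crhr1 transcript, NR_126014.1, differed by 1.13 (SE 0.480, unadjusted p = 0.0198, adjusted p = 0.428, limma), while the coding NM_030999.4 differed by 0.02 (SE 0.352). The Sgk1 transcript XM_006227723.1 differed by 0.20 (SE 0.101, unadjusted p = 0.0473, adjusted p = 0.589, limma). These were the 3 of the 22 transcripts under an unadjusted p of 0.05, as were 8.33% of all transcripts. In the second pair alone the Crhr1 transcripts differed by 1.20 (SE 0.640) and -0.16 (SE 0.470), XM_006227723.1 by 0.12 (SE 0.135) and the Hsd11b1 transcript by -0.03 (SE 0.253).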

How the data were processed

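Total RNA of untreated whole brain was sequenced from the 232 samples in the labels. The authors deposited values per library on a log scale, read here as log2: the study's methods describe regularized-log values, for an earlier table, but how the v7.1 table was transformed, its log base and its build were not given in the sources used here. For that earlier table the methods also describe counts first corrected for batch and technical variation, by a factor estimated from isoforms that varied least with strain. Whether each table used here was corrected so is not known, and its part in the strain calls was not tested. The submitters' processing notes name cutadapt 1.9.1, Bowtie2, HISAT2, StringTie, RSEM and DESeq2. Reads were trimmed, ribosomal reads were removed, and the rest were aligned to strain-specific genomes. Read counts were not used here, so depth is unknown.

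The v7.1 RefSeq gene table (20859 genes, 73 spike-ins left out) was analyzed with libraries of an animal averaged. Strain effects and contrasts were fitted with limma 3.58.1 in R 4.3.3 on all genes, with 74 strains as the factor and Benjamini-Hochberg adjustment at 0.05. Co-variation used deviations from strain means and 100000 permutations within strains, in Python 3.11.15 with numpy 2.4.6. The fits were tested on simulated data. Alternatives were a batch covariate, an animal-number block, 1 library per animal, the v5 and v6 tables of Ensembl genes, genes above the median, and animals left out. Nothing in the labels says that animals of a strain were raised apart, so p-values measure the spread between these samples. All 10 members were described; from the other lists the 3 genes with the highest strain R2 and up to 3 each way between F344 and LEW were named among those past the threshold; for likeness, 10 genes were named for the mean of Fkbp5, Sgk1 and Tsc22d3, and 3 each for Crh, Nr3c1 and Hsd11b1. Nfkbia in the strain order of Sgk1 was named after its values were seen. The members and lists were chosen with earlier results of these data known. Columns of comparisons by the authors were not present in the tables used.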

Additional observations from a re-analysis of the deposited data

Results flagged for a closer look

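A pair of genes differed between the F344 and LEW substrain pairs at an unadjusted p under 0.05 in the limma test of the difference itself. For Crhbp the difference of F344/NCrl from LEW/Crl exceeded that of F344/NHsd from LEW/SsNHsd by 0.48 (SE 0.148, unadjusted p = 0.00143, adjusted p = 0.99998, limma). For the gene-level Hsd11b1 it was lower by the same measure, at -0.61 (SE 0.266, unadjusted p = 0.0244, adjusted p = 0.99998, limma). An unadjusted p under 0.05 was reached by 2 of the 10 genes and by 455 of 20859 genes (2.18%). Only 1 of the 2 genes stayed under it without F344/NCrl animal 1, LEW/Crl animal 1 or LEW/SsNHsd animal 2. Neither passed the adjustment over all genes, where 0 of the 10 genes and 0.0144% of all genes did.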

How the results depend on the processing

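Members with a strain effect were 6 in the reported fit, 6 with an animal-number block and 8 with the batch covariate, beside 57.5% of all genes. They were between 2 and 3 when all animals of a number were left out. Sgk1 and Crhbp were called each time and Tsc22d3 was lost without the animals numbered 2 (adjusted p = 0.101, limma). Members called were 10 in the v5 table and 10 in that table on the animals shared with v7.1. They were 3 in v7.1 on the animals of v5, where 22.8% of all genes passed. The fits on shared animals were added after seeing the data. All genes called were 12003 with the batch covariate, 3579 above the median (of 10429 genes tested), 4760 and 12443 on the shared animals of v7.1 and v5, and 3003 to 7635 with a number or HXB17/Ipcv animal 2 left out. Within panels, batch gave 0 members for FXLE/LEXF and 2 for the classic inbred strains (Crh added), and the block gave 0 for FXLE/LEXF. F344 against LEW stayed at 0 members in each of 24 alternatives; all genes called were 143 above the median, 374 in v6, 804 in v5, 623 with F344/Stm, 200 and 215 in the NHsd and NCrl pairs, and 364 to 574 with an animal left out, the lowest without F344/NCrl animal 1. SHR/OlaIpcv against BN-Lx/Cub gave 0 to 2 members with an animal left out, and 410 genes (1.97%) with the block. The mean r of Fkbp5, Sgk1 and Tsc22d3 turned to -0.0073 in HXB/BXH and lay between -0.0083 and 0.13 with a number left out. The sign of the F344 minus LEW difference, never past the threshold, turned for Crhbp (-0.12) and Hsd11b1 (0.16) in the NHsd pair, for Nr3c2 (-0.042) and Tsc22d3 (0.034) in the NCrl pair, for Hsd11b1 (0.013) and Nr3c1 (0.041) in v5, for Fkbp5 in v6 (0.0033), and for Nr3c1 in the NHsd pair (0.0079), with the title batch (0.0058) and with F344/Stm (0.040). With an animal left out it ranged from -0.054 to 0.045 for Nr3c1, -0.011 to 0.033 for Nr3c2, -0.059 to 0.010 for Fkbp5 and -0.021 to 0.10 for Sgk1. The cause of these changes was not tested. Fits with animals or genes left out also held fewer of them, and the part of this was not tested either. In the 4 substrains the animals numbered 1 share a title batch, as do those numbered 2 and 3. No label says that animals were paired. Of 15 same-numbered pairs of the 4 substrains, 13 had a correlation over 0.1, from -0.27 to 0.76. The block moved F344 against LEW from 573 to 574 genes. However, it fitted an effect of the animal number shared by all strains, where same-numbered animals of different strains had a mean correlation of 0.02. It could thus not remove a pairing confined to the 4 substrains, and the part of such a pairing was not tested. Depth is unknown, and the number of animals limits precision.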
